A study of Mus musculus with 32 samples.

Results

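Interferon-stimulated genes, transcripts that cells raise when interferon reaches their receptors, were followed through sorted populations of the embryonic mouse thymus. A list of 35 such genes was taken by symbol. Of the list, 31 genes were among the 19404 of the E15.5 table and all 35 among the 26244 of the E19.5 table. The cells came from the strain labelled 5x polychromILC mice, which carries reporters for several genes, and every group shares that background, so that no group without reporters was set beside them. Per the labels, each library is bulk RNA-seq of 1 flow-sorted gate. At E15.5 the gates were DN1-BCL11b-ID2-, DN1-BCL11b+ID2-, DN1-BCL11b+ID2+ and DN1-BCL11b-ID2+, with 3 libraries each, and DN2, with 2. At E19.5 the same gates and DN1-BCL11blowID2low had 3 libraries each, with the library numbers 1, 2 and 4. Gates are written below without the DN1 prefix. DN1 and DN2 name successive early stages of thymocytes that lack CD4 and CD8. BCL11b marks commitment to the T lineage, and ID2, an inhibitor of E-protein factors, marks innate lymphoid cells and their precursors. The labels do not say whether libraries of a gate come from separate animals or how many embryos were pooled, and a p-value here therefore reflects how far libraries of a gate differ, for which technical reasons may suffice.

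Interferons are secreted when cells sense foreign nucleic acid. Type I and type III interferons act through receptors coupled to JAK1 and TYK2, which lead a complex with STAT2 and IRF9 to the interferon-stimulated response element. Type II interferon, the product of Ifng, acts through JAK1 and JAK2 on genes with a gamma-activated site. The induced genes encode the factors of the pathway itself, sensors of viral RNA and DNA, enzymes and GTPases that block viral growth, and the ubiquitin-like protein ISG15 with its handling enzymes. Many of them are also transcribed at a low level without added interferon, and natural killer cells and other innate lymphocytes of the thymus are known producers of type II interferon.

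The E15.5 libraries had 12030749 to 20709387 reads each, and those of E19.5 had 2599470 to 9498133. The 2 mitochondrial ribosomal RNAs took 50.8 to 80.0% and 28.7 to 58.8% of them, and 8277 to 12954 and 14387 to 18879 genes were detected. The values are read counts that were normalised separately at each stage, so levels were compared within a stage only. Among thymocyte markers at E19.5, Il2ra, which encodes CD25 and marks DN2, stood at 7825 ± 837 normalised counts (mean ± SD, n = 3) in DN2 and at 87.1 ± 29.2 in BCL11b+ID2-, but at 2307 ± 297 in BCL11b+ID2+. Cd44, whose protein is on both DN1 and DN2 cells, was present in every gate and stood at 334 ± 69.2 in DN2. Ptprc, the pan-leukocyte gene for CD45, ranged in its gate means from 1395 to 4673. Of the 9 thymocyte stage and lineage markers listed, 2 were higher and 7 lower in DN2 than in BCL11b+ID2-. The calls are at an adjusted p under 0.05 in limma, where 16.2% of all genes were called. The median log2 difference of these markers was -1.43. In bulk libraries, fewer expressing cells and less RNA per cell cannot be told apart.

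RefSeq promoter windows (GRCm38.p6, from 250 bases before to 50 after the start of transcription) were matched for 26 of the 35 genes. The core of the interferon-stimulated response element, searched as GAAANNGAAA on both strands, was in the windows of 14 of these 26 genes (53.8%), against 3.99% of the 27025 genes in that table. The gamma-activated site, searched as TTCNNNGAA, which reads the same on both strands, was in 9 of 26 (34.6%), against 9.55%. Both motifs were in the windows of 4 genes, with bases shared between the motifs in 1 window. Of the 14 genes with the response element core, 11 differed between gates at E19.5 in the test described below. Of the 12 matched genes without it, 6 did, where 32.9% of all genes tested did. Members without a matched window are in neither count. Of these, Zbp1, Mx1, Oas2, Parp9, Parp14, Ifi27 and Rtp4 also differed, Usp18 did not and Mx2 was not tested. A match is a description of these letters and not a sign of binding. The 4 genes with the core whose values separated the E19.5 gates most sharply are shown with the core in capitals. Whether these stretches carry interferon signals was not tested.
Oas3: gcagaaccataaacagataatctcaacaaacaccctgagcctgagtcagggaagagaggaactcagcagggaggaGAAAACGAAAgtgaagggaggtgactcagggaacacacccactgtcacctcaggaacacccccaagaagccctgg
Igtp: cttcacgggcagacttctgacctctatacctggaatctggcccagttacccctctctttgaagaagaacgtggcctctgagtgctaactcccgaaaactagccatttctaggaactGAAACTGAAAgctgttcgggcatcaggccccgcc
Ddx58: tccccagcgccctgaggcagTTTCGATTTC
Gbp2: ccagttaggaactcttttagTTTCACTTTC
The first 2 are the 150 bases before the RefSeq start site, 5′ to 3′ along the gene, at chr5:120777660-120777809 (minus strand) and chr11:58199406-58199555 (plus strand). The others are the 30 bases that end with the core, at chr4:40239814-40239843 (minus strand) and chr3:142620584-142620613 (plus strand), because the core of Ddx58 lies past its start site and that of Gbp2 past the start of its GENCODE M21 gene model, inside the first exon. Cores read as TTTCNNTTTC in Gbp2 and Ddx58, the reverse complement, since they lie on the other strand. The first base of the core lay at -75 in Oas3, -34 in Igtp, -59 in Gbp2 and 3 in Ddx58, counted from the start site.

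At E19.5, 34 of the 35 genes reached a normalised count of 10 in at least 3 libraries, the threshold for testing, and Mx2, a dynamin-like GTPase active against viruses, did not, with a highest value of 19.6. A moderated F test in limma, which asks whether any of the 6 gates differ, called 24 of the 34 at an adjusted p under 0.05, where 32.9% of all 13840 genes tested were called. On the log2 scale, 13 of the 34 had their highest gate mean in BCL11b-ID2+, a gate that was highest for 19.3% of all genes. BCL11b-ID2- was highest for a further 9 (against 17.3% of all genes), BCL11b+ID2+ for 7 (14.3%), BCL11b+ID2- for 3 (18.8%) and BCL11blowID2low for 2 (11.7%). DN2 was highest for 0 of them and lowest for 13, against 18.6% and 20.0% of all genes, and BCL11blowID2low was lowest for 11, against 19.2%. The median within-gate SD was 0.634 log2 units, and 0.775 over all genes. Per kilobase of exon and over the 18 libraries, levels ran from 184 normalised counts for Igtp, 152 for Trim25, 109 for Isg15 and 102 for Dtx3l down to 1.51 for Mx1 and 0.346 for Ifi44.

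**Figure D1:**
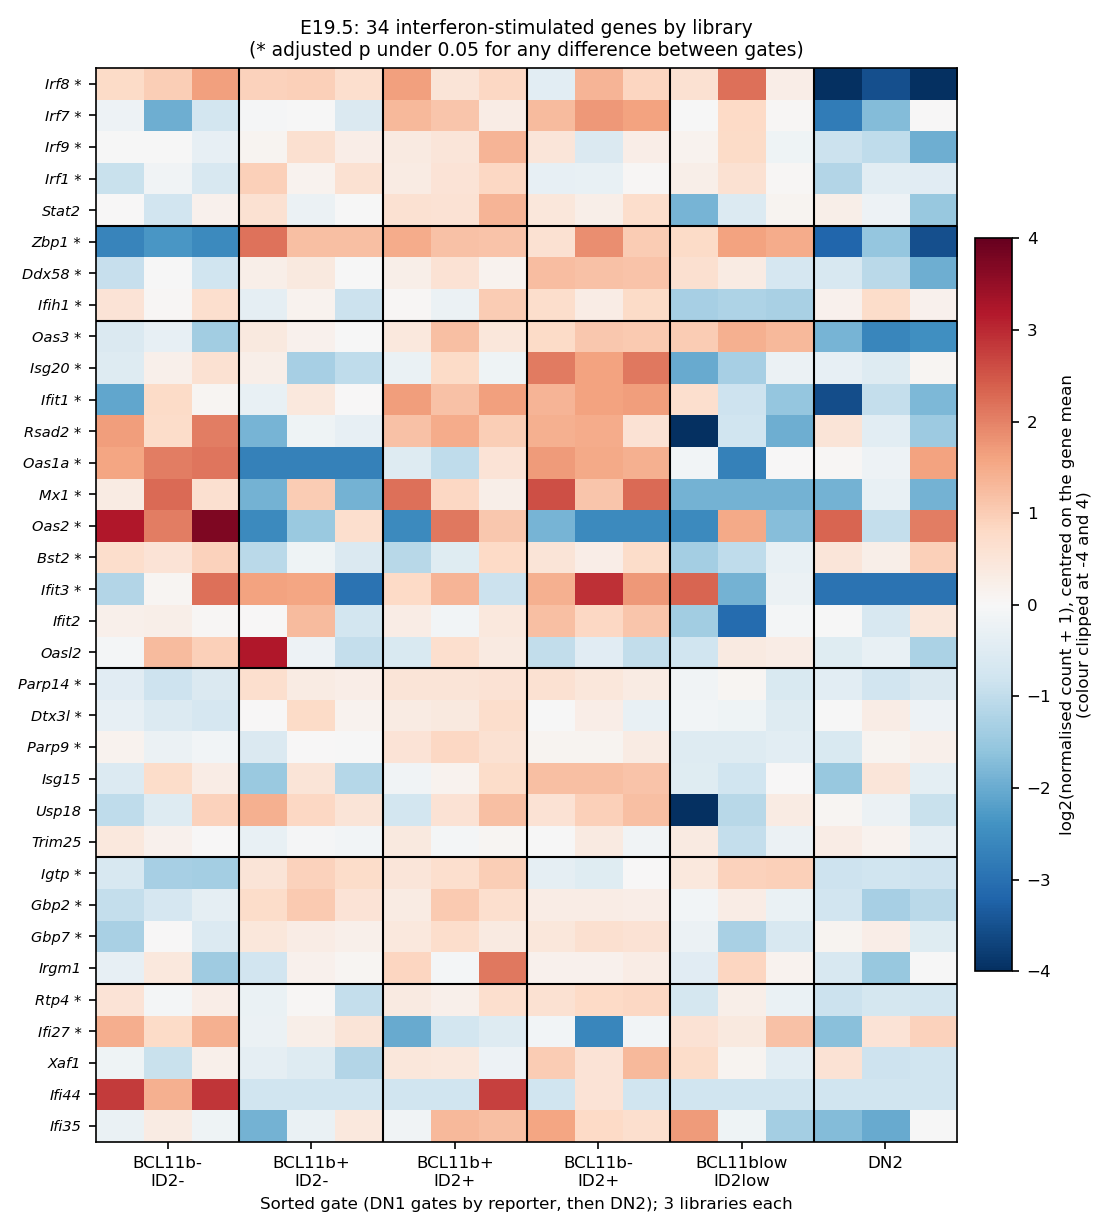
Heatmap of 34 interferon-stimulated genes (vertical axis, grouped by role in the order of the text) over the 18 E19.5 libraries (horizontal axis, 3 per gate), coloured by log2(normalised count + 1) centred on each gene's mean; asterisks mark the 24 genes with an adjusted p under 0.05 for any gate difference. Zbp1 is blue in BCL11b-ID2- and DN2, Irf8 in DN2 alone, and many genes are red in BCL11b-ID2+.

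The transcription factors of the pathway differed between the E19.5 gates for 4 of 5 genes, where 32.9% of all genes did. Irf8, also a lineage factor of myeloid and dendritic cells (chromosome 8, 120736358 to 120756694, plus strand, GRCm38 and GENCODE M21 as for all genes), is given as normalised counts of libraries 1, 2 and 4. It stood at 57.3, 68.0 and 107 in BCL11b-ID2-, at 64.2, 66.4 and 53.5 in BCL11b+ID2- and at 107, 48.6 and 60.01 in BCL11b+ID2+. The remaining 3 gates stood at 24.5, 88.3 and 62.0 in BCL11b-ID2+, at 51.5, 157 and 40.4 in BCL11blowID2low and at 0, 1.998 and 0 in DN2. All 3 DN2 libraries were below all 15 DN1 libraries. Irf8 was 92.2-fold (95% counting interval 31.0 to 452) lower in DN2 than in BCL11b+ID2- (log2 difference -5.43 ± 0.66 SE, adjusted p = 3.08e-06). Summed over 7 plasmacytoid dendritic cell markers, another cell type that is rich in Irf8, DN2 held 328 to 505 and BCL11b+ID2- 7799 to 11381, most of it Ccr9 (8967 ± 1805), which T-lineage cells also express, with Siglech and Cox6a2 at 0 in BCL11b+ID2-. Their part in the Irf8 difference was not tested.

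Irf7, the factor that amplifies type I interferon (chromosome 7, 141262706 to 141266481, minus strand), stood at 56.1, 15.9 and 38.4 in BCL11b-ID2-, at 62.5, 63.2 and 42.4 in BCL11b+ID2- and at 158, 139 and 79.1 in BCL11b+ID2+. In the other 3 gates the libraries were at 155, 217 and 197.2 in BCL11b-ID2+, at 63.1, 113 and 66.2 in BCL11blowID2low and at 8.48, 18.6 and 64.7 in DN2. Its BCL11b-ID2+ libraries were all above those of BCL11b-ID2-, 5.16-fold higher in mean (log2 difference 2.49 ± 0.58 SE, adjusted p = 0.00409). Its exons overlap Phrf1 on the other strand, and whether counting kept the strand was not known here, so part of these reads may belong to that gene. Irf9, the DNA-binding partner of STAT2 (chromosome 14, 55603571 to 55610030, plus strand), stood at 140.3, 141 and 114 in BCL11b-ID2-, at 154, 223 and 173 in BCL11b+ID2- and at 185, 199 and 369 in BCL11b+ID2+. It was at 201.2, 96.0 and 172 in BCL11b-ID2+, at 156, 245 and 127 in BCL11blowID2low and at 77.7, 69.9 and 36.3 in DN2, so that DN2 lay below every DN1 library. The difference of DN2 from BCL11b+ID2- was 2.99-fold (log2 difference -1.62 ± 0.38 SE, adjusted p = 0.00499), and the exons overlap Rnf31 on the same strand.

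Irf1, an early factor of the type II response (chromosome 11, 53770014 to 53778374, plus strand), was 2.18-fold higher in BCL11b+ID2- (281, 162 and 221) than in BCL11b-ID2- (78.1, 133 and 93.2; log2 difference 1.12 ± 0.33 SE, adjusted p = 0.0242). DN2, at 63.6, 109 and 107, was 2.38-fold below BCL11b+ID2- (log2 difference -1.24 ± 0.33 SE, adjusted p = 0.0122). The libraries did not overlap in either comparison. The first call was lost without library 1 or 4 of BCL11b+ID2- or library 1 or 4 of BCL11b-ID2- (adjusted p = 0.0585 to 0.122), and the second without library 1 of BCL11b+ID2- or library 1 of DN2 (adjusted p = 0.0667 to 0.0687). The first was also lost with only the compared gates in the fit (0.0564), as was the second (0.0594). Stat2, the STAT of the type I complex, ranged from 26.6 to 255 over the 18 libraries and was not called (adjusted p = 0.0839 for any gate in limma).

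All 3 sensors were called over the gates, where 32.9% of all genes were. Zbp1, a sensor of Z-form nucleic acid that can trigger necroptosis (chromosome 2, 173206612 to 173218923, minus strand), stood at 17.1, 21.0 and 18.2 in BCL11b-ID2- and at 11.3, 37.3 and 8.72 in DN2. In the other gates it was at 505, 258 and 258 in BCL11b+ID2- and at 308, 249.8 and 244 in BCL11b+ID2+. The other gates were at 170.0, 405 and 224 in BCL11b-ID2+ and at 189, 339 and 311 in BCL11blowID2low. No library of BCL11b-ID2- or DN2 reached the lowest of the other 12. Zbp1 was 18.1-fold higher in BCL11b+ID2- than in BCL11b-ID2- (log2 difference 4.04 ± 0.46 SE, adjusted p = 1.35e-06) and 14.2-fold higher in BCL11b-ID2+ than in BCL11b-ID2- (log2 difference 3.67 ± 0.46 SE, adjusted p = 4.14e-06). DN2 was 17.8-fold below BCL11b+ID2- (log2 difference -4.29 ± 0.46 SE, adjusted p = 5.46e-07), and BCL11blowID2low 14.9-fold above BCL11b-ID2- (log2 difference 3.79 ± 0.46 SE, adjusted p = 3.32e-06). These calls held without each library in turn. The ID2 difference among BCL11b+ cells, -0.28, was -3.95 against that among BCL11b- cells in the test of the interaction (adjusted p = 0.000313).

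Ddx58 encodes RIG-I, the sensor of short double-stranded RNA with a 5′ triphosphate (chromosome 4, 40203773 to 40239828, minus strand). It stood at 161, 299 and 174 in BCL11b-ID2-, at 359, 403 and 299 in BCL11b+ID2- and at 361, 452 and 337 in BCL11b+ID2+. The remaining 3 gates stood at 711, 693 and 674 in BCL11b-ID2+, at 478, 380.2 and 192 in BCL11blowID2low and at 194, 145 and 77.8 in DN2. The 3 BCL11b-ID2+ libraries were above all other 15. Against BCL11b-ID2- the gate was 3.28-fold higher (log2 difference 1.76 ± 0.34 SE, adjusted p = 0.000646), and DN2 was 2.55-fold below BCL11b+ID2- (log2 difference -1.43 ± 0.34 SE, adjusted p = 0.00489). The ID2 difference was smaller among BCL11b+ cells (interaction -1.65, adjusted p = 0.0308). That call was lost without library 1 or 4 of BCL11b+ID2+ or library 1 or 2 of BCL11b+ID2- or library 1 or 2 or 4 of BCL11b-ID2+ or library 1 or 4 of BCL11b-ID2- (adjusted p = 0.0565 to 0.0797), and without the filter (0.0531).

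Ifih1 encodes MDA5, the sensor of long double-stranded RNA (chromosome 2, 62595798 to 62646255, minus strand). It stood at 157, 109 and 172 in BCL11b-ID2-, at 83.3, 118 and 58.1 in BCL11b+ID2- and at 110.4, 90.7 and 219 in BCL11b+ID2+. It was at 173, 131 and 181 in BCL11b-ID2+, at 41.5, 44.7 and 42.8 in BCL11blowID2low and at 122, 177 and 121 in DN2, so that BCL11blowID2low lay below every other library. Against BCL11b-ID2- it was 3.40-fold lower there (log2 difference -1.72 ± 0.39 SE, adjusted p = 0.00328). Against BCL11b+ID2+ it was 3.26-fold lower (log2 difference -1.57 ± 0.39 SE, adjusted p = 0.0182), a call that was lost without library 4 of BCL11b+ID2+ (adjusted p = 0.138) and with only the compared gates in the fit (0.129). RIG-I and MDA5 transcripts therefore took different orders over the gates, with BCL11blowID2low lowest for Ifih1 and DN2 lowest for Ddx58.

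**Figure D2:**
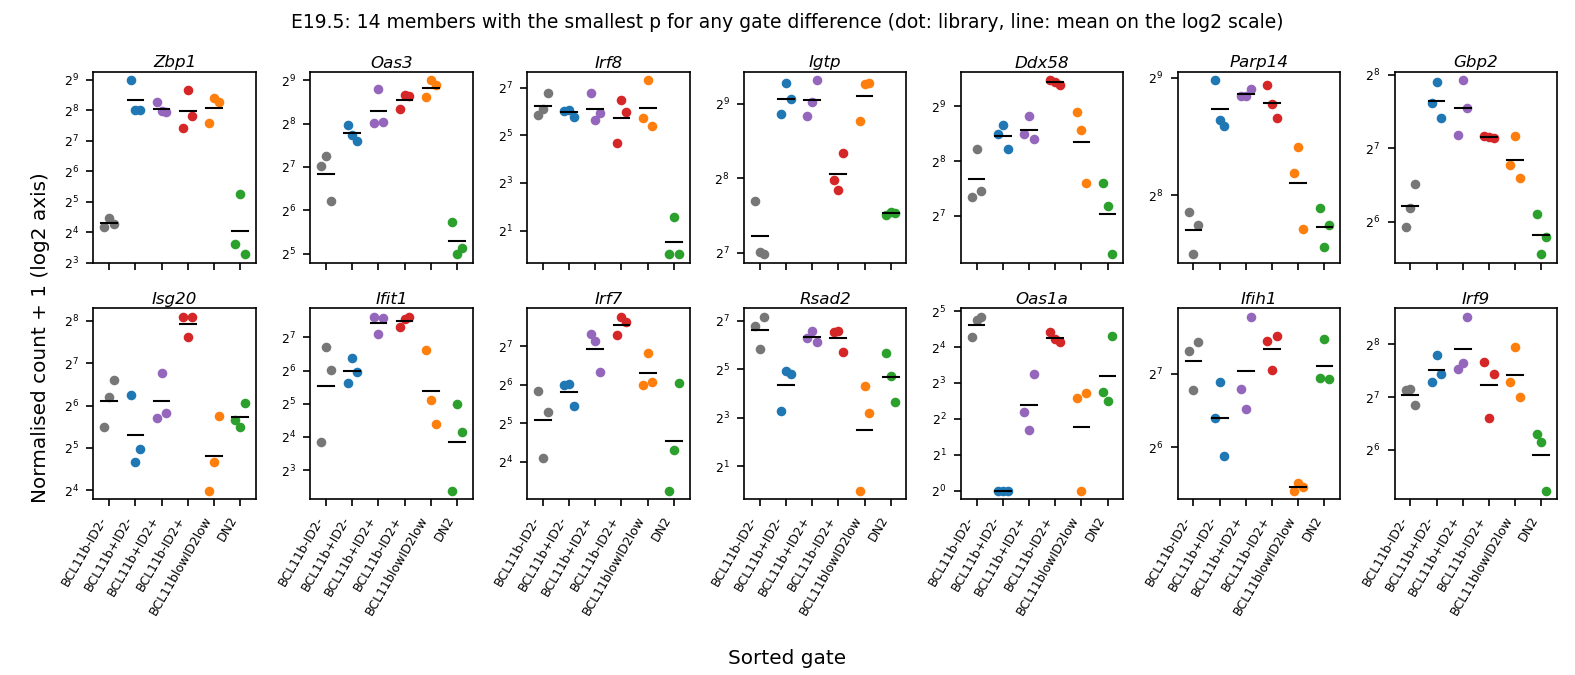
Normalised count + 1 (vertical axes, log2) in each E19.5 library by sorted gate (horizontal axes) for the 14 genes with the smallest p in the test over gates; dots are libraries and lines are means on the log2 scale. DN2 has the lowest mean for Zbp1, Oas3, Irf8, Ddx58, Gbp2, Ifit1, Irf7 and Irf9, and BCL11blowID2low for Isg20, Rsad2 and Ifih1. BCL11b-ID2+ has the 3 highest libraries for Ddx58 and Isg20.

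The antiviral effectors were the largest role, with 11 of 12 tested and 9 called, where 32.9% of all genes were called. Among the 2′-5′ oligoadenylate synthetases, which activate RNase L, Oas3 (chromosome 5, 120753098 to 120777661, minus strand) stood at 129, 153 and 73.0 in BCL11b-ID2-, at 252, 214 and 192 in BCL11b+ID2- and at 256, 447 and 262 in BCL11b+ID2+. In the other 3 gates the libraries were at 325, 405 and 396 in BCL11b-ID2+, at 390.1, 511 and 472 in BCL11blowID2low and at 52.3, 30.6 and 34.2 in DN2. DN2 was below all 15 other libraries and 5.62-fold below BCL11b+ID2- (log2 difference -2.49 ± 0.32 SE, adjusted p = 7.45e-06). Oas3 was 3.17-fold higher in BCL11b-ID2+ than in BCL11b-ID2- (log2 difference 1.71 ± 0.32 SE, adjusted p = 0.000518) and 3.87-fold higher in BCL11blowID2low than in BCL11b-ID2- (log2 difference 1.9998 ± 0.32 SE, adjusted p = 0.000106).

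Oas1a (chromosome 5, 120896256 to 120907521, minus strand) had low counts throughout. It had no reads in the 3 BCL11b+ID2- libraries, and stood at 18.3, 26.0 and 27.9 in BCL11b-ID2-, at 3.56, 2.21 and 8.57 in BCL11b+ID2+ and at 20.4, 17.7 and 16.5 in BCL11b-ID2+. The remaining gates were at 4.98, 0 and 5.65 in BCL11blowID2low and at 5.65, 4.66 and 18.9 in DN2. At a floor of 3 reads over the gate, BCL11b+ID2- was at least 19.4-fold lower than BCL11b-ID2- (log2 difference -4.63 ± 0.89 SE, adjusted p = 0.000767), and DN2 at least 7.83-fold higher than BCL11b+ID2- (log2 difference 3.18 ± 0.89 SE, adjusted p = 0.0156). The DN2 call was lost without library 4 of DN2 (adjusted p = 0.0934) and with a pseudocount of 8 (0.0836) and with only the compared gates in the fit (0.0551). BCL11blowID2low was 6.79-fold below BCL11b-ID2- (log2 difference -2.85 ± 0.89 SE, adjusted p = 0.0328), a call lost without library 1 or 2 or 4 of BCL11b-ID2- or library 2 of BCL11blowID2low (adjusted p = 0.0595 to 0.185) and without the filter (0.0518), in edgeR (0.168), in DESeq2 (0.09) and with only the compared gates in the fit (0.102). Oas1a has close copies such as Oas1g, and reads shared between them could be split by the counting.

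Oas2 ran from 0 to 75.9, with 52.4, 23.1 and 75.9 in BCL11b-ID2- and 0.599, 0 and 0 in BCL11b-ID2+. The 253-fold (95% counting interval 44.7 to 10056) lower level in BCL11b-ID2+ was called (log2 difference -5.31 ± 1.26 SE, adjusted p = 0.00451). It was also lower in BCL11b+ID2- than in BCL11b-ID2- (log2 difference -4.11 ± 1.26 SE, adjusted p = 0.0285), a call lost without library 1 or 2 of BCL11b+ID2- or library 1 or 4 of BCL11b-ID2- (adjusted p = 0.0775 to 0.14) and in edgeR (0.103). Its call over the gates (adjusted p = 0.0211) was lost without library 1 or 4 of BCL11b-ID2- (highest adjusted p = 0.08). The interaction was 6.64 (adjusted p = 0.0195), lost without library 2 or 4 of BCL11b+ID2+ or library 1 of BCL11b+ID2- or library 4 of BCL11b-ID2- (adjusted p = 0.0514 to 0.0642). The call of BCL11blowID2low below BCL11b-ID2- (log2 difference -3.90 ± 1.26 SE, adjusted p = 0.0401) was lost without library 1 or 2 or 4 of BCL11b-ID2- or library 1 or 4 of BCL11blowID2low (adjusted p = 0.0568 to 0.171), and without the filter (0.0596), in edgeR (0.185), in DESeq2 (0.123) and with only the compared gates in the fit (0.0504). Oas2 and Oas1a thus had their highest gate mean in BCL11b-ID2-, where Oas3 was 118 on average against 458 in BCL11blowID2low. In BCL11b-ID2- the 15 macrophage, monocyte and granulocyte markers summed to 2348 to 3431, with Mpo at 2051 ± 456. The sums were 362 to 547 in BCL11b+ID2- (Fcgr1, Lyz2 and Elane at 0) and 2371 to 2764 in BCL11b-ID2+ (Mrc1, Fcgr1, S100a9 and Elane at 0). The 6 B-cell markers summed to 189 to 231, 49.3 to 91.3 and 5.31 to 31.1 in these gates, with Pax5 at 0 in the last 2, and the 7 plasmacytoid markers to 909.9 to 1069, 7799 to 11381 and 177 to 257. Their part in the Oas1a and Oas2 differences was not tested.

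Isg20, an RNA exonuclease (chromosome 7, 78913424 to 78920396, plus strand), stood at 43.9, 73.1 and 96.0 in BCL11b-ID2-, at 74.6, 24.6 and 30.4 in BCL11b+ID2- and at 51.6, 108 and 55.4 in BCL11b+ID2+. The other gates were at 271, 194 and 274 in BCL11b-ID2+, at 14.9, 24.6 and 53.3 in BCL11blowID2low and at 49.5, 44.0 and 66.1 in DN2. The BCL11b-ID2+ libraries were above all others, 3.47-fold above BCL11b-ID2- in mean (log2 difference 1.83 ± 0.53 SE, adjusted p = 0.0179). BCL11b+ID2+ was 3.43-fold below BCL11b-ID2+ (log2 difference -1.83 ± 0.53 SE, adjusted p = 0.0374). The first call was lost without library 1 or 4 of BCL11b-ID2+ or library 1 of BCL11b-ID2- (adjusted p = 0.0676 to 0.0953). The second was lost without library 1 or 4 of BCL11b+ID2+ or library 1 or 2 or 4 of BCL11b-ID2+ (adjusted p = 0.0721 to 0.145), and without the filter (0.0632).

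Ifit1, which binds viral RNA without the host cap methylation (chromosome 19, 34640871 to 34650009, plus strand), stood at 13.4, 103 and 64.3 in BCL11b-ID2-, at 48.6, 81.4 and 60.9 in BCL11b+ID2- and at 194, 137 and 189.9 in BCL11b+ID2+. The remaining 3 gates stood at 157, 186 and 196 in BCL11b-ID2+, at 97.9, 33.5 and 20.2 in BCL11blowID2low and at 4.24, 30.6 and 16.7 in DN2. The 6 libraries of the ID2+ gates were above the other 12. Within a BCL11b state, however, the ID2 differences did not pass, with a log2 difference of 1.45 (adjusted p = 0.231) among BCL11b+ and 1.96 (adjusted p = 0.0536) among BCL11b- cells. DN2 was 3.70-fold below BCL11b+ID2- (log2 difference -2.14 ± 0.69 SE, adjusted p = 0.0346), a call that was lost without library 1 or 2 or 4 of BCL11b+ID2- or library 1 or 4 of DN2 (adjusted p = 0.0567 to 0.189), and without the filter (0.0596), in edgeR (0.0726) and with only the compared gates in the fit (0.0925). The neighbouring Ifit2 ranged from 3.35 to 88.9 and was not called (adjusted p = 0.0688 for any gate). Ifit3 ranged from 0 to 57.6 with no read in any DN2 library, and its call over the gates (adjusted p = 0.049) was lost without each of 10 of the 18 libraries. The replicate block, edgeR, no filter and a pseudocount of 8 also ended that call (highest adjusted p = 0.117).

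Rsad2 encodes viperin, a radical SAM enzyme that makes a chain-terminating nucleotide (chromosome 12, 26442746 to 26456452, minus strand). It stood at 109.8, 57.1 and 144 in BCL11b-ID2-, at 8.68, 29.99 and 26.7 in BCL11b+ID2- and at 78.3, 96.2 and 68.6 in BCL11b+ID2+. In the other 3 gates the libraries were at 92.2, 96.0 and 51.4 in BCL11b-ID2+, at 0, 19.0 and 8.07 in BCL11blowID2low and at 49.5, 25.3 and 11.6 in DN2. BCL11blowID2low was 11.5-fold below BCL11b-ID2- (log2 difference -4.11 ± 0.83 SE, adjusted p = 0.00118) and 8.98-fold below BCL11b+ID2+ (log2 difference -3.84 ± 0.83 SE, adjusted p = 0.00679), with no overlap of libraries. The second call was lost with only the compared gates in the fit (0.0803). Mx1, a dynamin-like antiviral GTPase, ranged from 0 to 21.0 and had no read in the 3 BCL11blowID2low libraries, which put it at least 7.001-fold below BCL11b-ID2- (log2 difference -2.97 ± 0.99 SE, adjusted p = 0.0467). That call was lost without any of the 6 libraries (adjusted p = 0.0572 to 0.2), and with a pseudocount of 8 (0.154), without the filter (0.0622), in edgeR (0.0679), in DESeq2 (0.0523) and with only the compared gates in the fit (0.0782). The call of Mx1 over the gates (adjusted p = 0.0118) was lost in edgeR and DESeq2 (highest adjusted p = 0.072). Bst2, which tethers budding virions, ranged from 29.9 to 152 and was 2.95-fold lower in BCL11blowID2low than in BCL11b-ID2- (log2 difference -1.60 ± 0.46 SE, adjusted p = 0.0214), but not without library 1 or 4 of BCL11b-ID2- or library 1 or 2 of BCL11blowID2low (adjusted p = 0.0564 to 0.0853). Its call over the gates (adjusted p = 0.0253) was lost in edgeR (0.0588) and without library 1 of BCL11blowID2low or library 4 of BCL11b-ID2- (highest adjusted p = 0.0566). Oasl2 was not called (adjusted p = 0.258 for any gate). Its mean of 478 ± 668 in BCL11b+ID2- rested on library 1, at 1249.5, where the other 2 held 116 and 69.2.

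Of the 6 genes of the ISG15 and ubiquitin system, 3 were called over the gates at E19.5, where 32.9% of all genes were. Parp14, an ADP-ribosyltransferase that acts with the PARP9 and DTX3L pair (chromosome 16, 35832874 to 35871544, minus strand), stood at 231, 179 and 214 in BCL11b-ID2-, at 503, 399 and 385 in BCL11b+ID2- and at 459, 458 and 479 in BCL11b+ID2+. The other gates were at 489, 438 and 402 in BCL11b-ID2+, at 290.5, 339 and 209 in BCL11blowID2low and at 236, 188 and 214 in DN2. The BCL11b-ID2- and DN2 libraries lay below all those of the BCL11b+ and BCL11b-ID2+ gates. Parp14 was 2.13-fold higher in BCL11b-ID2+ than in BCL11b-ID2- (log2 difference 1.09 ± 0.23 SE, adjusted p = 0.00193), 2.06-fold higher in BCL11b+ID2- (log2 difference 1.04 ± 0.23 SE, adjusted p = 0.00337) and 2.02-fold lower in DN2 than in BCL11b+ID2- (log2 difference -1.01 ± 0.23 SE, adjusted p = 0.00439). Each of the 3 calls held without each library in turn.

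Dtx3l, a ubiquitin ligase, and Parp9, its partner, are neighbours whose exons overlap on opposite strands, so reads of the shared stretch cannot be told apart. Dtx3l ranged from 349 to 954 and was 1.81-fold higher in BCL11b+ID2- than in BCL11b-ID2- (log2 difference 0.82 ± 0.23 SE, adjusted p = 0.0159), but not without library 2 of BCL11b+ID2- or library 2 or 4 of BCL11b-ID2- (adjusted p = 0.0501 to 0.112). Parp9 ranged from 122 to 336 and was 2.24-fold lower in BCL11blowID2low than in BCL11b+ID2+ (log2 difference -1.15 ± 0.29 SE, adjusted p = 0.0202), but not without library 2 or 4 of BCL11b+ID2+ or library 2 of BCL11blowID2low (adjusted p = 0.0546 to 0.0862) nor with only the compared gates in the fit (0.0718). Its call over all gates (adjusted p = 0.0424) was lost without each of 11 of the 18 libraries and without the filter (0.0949). Isg15 itself was not called (adjusted p = 0.0723 for any gate), although its BCL11b-ID2+ libraries, at 162, 164 and 155, were above the other 15, which ran up to 118. Usp18, the protease that removes ISG15, ranged from 1.66 to 121 (adjusted p = 0.0879). Trim25, the ubiquitin ligase of RIG-I, had the narrowest relative range of the 34, from 439 to 1137 (adjusted p = 0.565).

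Interferon-inducible GTPases, families that act against intracellular pathogens, were called for 3 of 4 genes, where 32.9% of all genes were. Igtp (chromosome 11, 58199556 to 58207591, plus strand) stood at 205, 128 and 125 in BCL11b-ID2-, at 465, 618 and 535 in BCL11b+ID2- and at 454, 518 and 635 in BCL11b+ID2+. The remaining 3 gates stood at 250.9, 228 and 324 in BCL11b-ID2+, at 435, 612 and 621 in BCL11blowID2low and at 181, 186 and 183 in DN2. The 9 libraries of the BCL11b+ and BCL11blowID2low gates were above the other 9. Igtp was 3.53-fold higher in BCL11b+ID2- than in BCL11b-ID2- (log2 difference 1.84 ± 0.25 SE, adjusted p = 1.7e-05), 3.64-fold higher in BCL11blowID2low than in BCL11b-ID2- (log2 difference 1.88 ± 0.25 SE, adjusted p = 1.3e-05) and 2.94-fold lower in DN2 than in BCL11b+ID2- (log2 difference -1.54 ± 0.25 SE, adjusted p = 0.00015). Smaller differences, of BCL11b+ID2+ over BCL11b-ID2+ (log2 difference 1.002 ± 0.25 SE, adjusted p = 0.0159) and of BCL11b-ID2+ over BCL11b-ID2- (log2 difference 0.83 ± 0.25 SE, adjusted p = 0.0266), were lost without library 4 of BCL11b+ID2+ or library 1 or 2 of BCL11b-ID2+ (adjusted p = 0.0611 to 0.097) and without library 1 or 4 of BCL11b-ID2+ or library 2 or 4 of BCL11b-ID2- (adjusted p = 0.0553 to 0.13). The second was also lost without the filter (0.052) and with only the compared gates in the fit (0.0584). Part of the Igtp exons overlaps Irgm2 on the same strand.

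Gbp2, a guanylate-binding protein (chromosome 3, 142620602 to 142638008, plus strand), stood at 59.8, 71.6 and 90.3 in BCL11b-ID2-, at 194, 238 and 169 in BCL11b+ID2- and at 144, 242 and 187 in BCL11b+ID2+. In the other 3 gates the libraries were at 143, 141 and 139 in BCL11b-ID2+, at 108, 142 and 95.2 in BCL11blowID2low and at 67.8, 45.9 and 54.5 in DN2. It was 2.71-fold higher in BCL11b+ID2- than in BCL11b-ID2- (log2 difference 1.43 ± 0.33 SE, adjusted p = 0.00436), and 3.57-fold lower in DN2 than in BCL11b+ID2- (log2 difference -1.82 ± 0.33 SE, adjusted p = 0.000502), with no overlap in either. Gbp7 ranged from 115 to 459. It was 2.11-fold higher in BCL11b-ID2+ than in BCL11b-ID2- (log2 difference 1.17 ± 0.31 SE, adjusted p = 0.0114), but not without library 1 of BCL11b-ID2- (adjusted p = 0.0979). The calls of BCL11b+ID2- over BCL11b-ID2- (log2 difference 0.93 ± 0.31 SE, adjusted p = 0.0499) and of BCL11blowID2low below BCL11b+ID2+ (log2 difference -1.21 ± 0.31 SE, adjusted p = 0.0264) were lost without library 1 or 2 or 4 of BCL11b+ID2- or library 1 or 4 of BCL11b-ID2- (adjusted p = 0.0715 to 0.269) and without library 1 or 2 or 4 of BCL11b+ID2+ or library 2 of BCL11blowID2low (adjusted p = 0.0625 to 0.156). The first of these was also lost without the filter (0.0852), with TMM scaling (0.0505), in edgeR (0.0883), in DESeq2 (0.0626) and with only the compared gates in the fit (0.0942), and the second with only the compared gates in the fit (0.0826). Irgm1 ranged from 2.66 to 44.2 and was not called (adjusted p = 0.542 for any gate). Guanylate-binding proteins form a family of similar genes, and reads shared among them could be split by the counting.

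Of 5 other induced genes, Rtp4 and Ifi27 were called over the gates, where 32.9% of all genes were. Rtp4, a receptor-transporting protein, ranged from 61.8 to 216 (adjusted p = 0.0115 for any gate) and passed in no single comparison. Ifi27, a mitochondrial membrane protein, ranged from 9.21 to 171 and was 3.61-fold lower in BCL11b-ID2+ than in BCL11b-ID2- (log2 difference -2.16 ± 0.67 SE, adjusted p = 0.0288), but not without library 2 of BCL11b-ID2+ or library 1 or 4 of BCL11b-ID2- (adjusted p = 0.0915 to 0.218) nor in edgeR (0.0652). Its call over the gates (adjusted p = 0.0448) was lost without each of 9 of the 18 libraries, and without the filter, with TMM scaling and in edgeR (highest adjusted p = 0.0782). Ifi44 ranged from 0 to 11.5, with reads in 5 libraries. It was at least 7.004-fold lower in BCL11b+ID2- and at least 7.29-fold lower in BCL11blowID2low than in BCL11b-ID2- (adjusted p = 0.0322 and 0.0342), and these calls were lost without library 1 or 2 or 4 of BCL11b+ID2- or library 1 or 4 of BCL11b-ID2- (adjusted p = 0.066 to 0.104) and without library 1 or 4 of BCL11b-ID2- or library 1 or 2 or 4 of BCL11blowID2low (adjusted p = 0.0648 to 0.109). The first was also lost with a pseudocount of 8 (0.0604), in edgeR (0.125) and in DESeq2 (0.371). The second was also lost with a pseudocount of 8 (0.0657), in edgeR (0.132), in DESeq2 (0.383) and with only the compared gates in the fit (0.0575). Xaf1, a pro-apoptotic protein, and Ifi35 ranged from 40.6 to 233 and 7.99 to 116 and were not called (adjusted p = 0.0691 and 0.137).

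The comparisons of gates share libraries, so their results are set side by side and are not independent. Which genes go with ID2 was asked at each BCL11b state. Among BCL11b- cells, BCL11b-ID2+ was higher for Irf7, Zbp1, Ddx58, Oas3, Isg20, Parp14, Gbp7 and Igtp and lower for Oas2 and Ifi27. These are 10 of 34 genes, where 15.9% of all genes were called. The median log2 difference was 0.74, with 25 of 34 above 0, against a median of -0.01 over all genes. Over the alternatives that left out 1 library the count was 7 to 10, and 6 calls, those of Ddx58, Irf7, Oas2, Oas3, Parp14 and Zbp1, held in all of them. Among BCL11b+ cells, limma called 0 of 34 genes, where 8.73% of all genes were called. At an unadjusted p under 0.05 there were 5, where 20.6% of all genes were. EdgeR called 0 and DESeq2 1, where they called 6.89 and 9.94% of all genes. The median was 0.45, with 28 of 34 above 0, against 0.00 over all genes. The smallest p there was that of Parp9 (log2 difference 0.86 ± 0.29 SE, adjusted p = 0.0658), and Isg20, called among BCL11b- cells, had a log2 difference of 0.80 (95% interval -0.28 to 1.89). The difference between the ID2 effects passed for 3 genes, Zbp1, Ddx58 and Oas2, where 9.28% of all genes passed. Without library 4 of BCL11b+ID2+ or of BCL11b-ID2- it passed for 1. Without library 1 of BCL11b+ID2- it passed for 2, but for neither Oas2 nor Ddx58.

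Markers of other cell types moved with ID2 in both settings. In BCL11b-ID2+ against BCL11b-ID2-, the macrophage, monocyte and granulocyte markers were 1 higher and 7 lower of 13 tested, with a median log2 difference of -3.26. The list summed to 2371 to 2764 and 2348 to 3431, with Mrc1, Fcgr1, S100a9 and Elane at 0 in BCL11b-ID2+. These overlapping sums therefore did not follow most of the markers. Plasmacytoid markers were 0 higher and 5 lower of 7 tested, B-cell markers 0 higher and 4 lower of 4 tested and epithelial and stromal markers 0 higher and 3 lower of 6 tested. Their lists summed to 177 to 257, 5.31 to 31.1 and 161 to 259.8 in BCL11b-ID2+, and to 909.9 to 1069, 189 to 231 and 941 to 1316 in BCL11b-ID2-. In BCL11b+ID2+ against BCL11b+ID2-, the macrophage, monocyte and granulocyte markers were 10 higher and 0 lower of 13 tested, with a median log2 difference of 4.52. That list summed to 2211 to 3109 in BCL11b+ID2+ (S100a9 and Elane at 0) and 362 to 547 in BCL11b+ID2-. Of all genes, 15.9% were called for ID2 among BCL11b- cells and 8.73% among BCL11b+ cells. Some of the markers passed the threshold through 1 gate alone, so their counts are a description. Their part in the ID2 differences of the members was not tested.

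**Figure D3:**
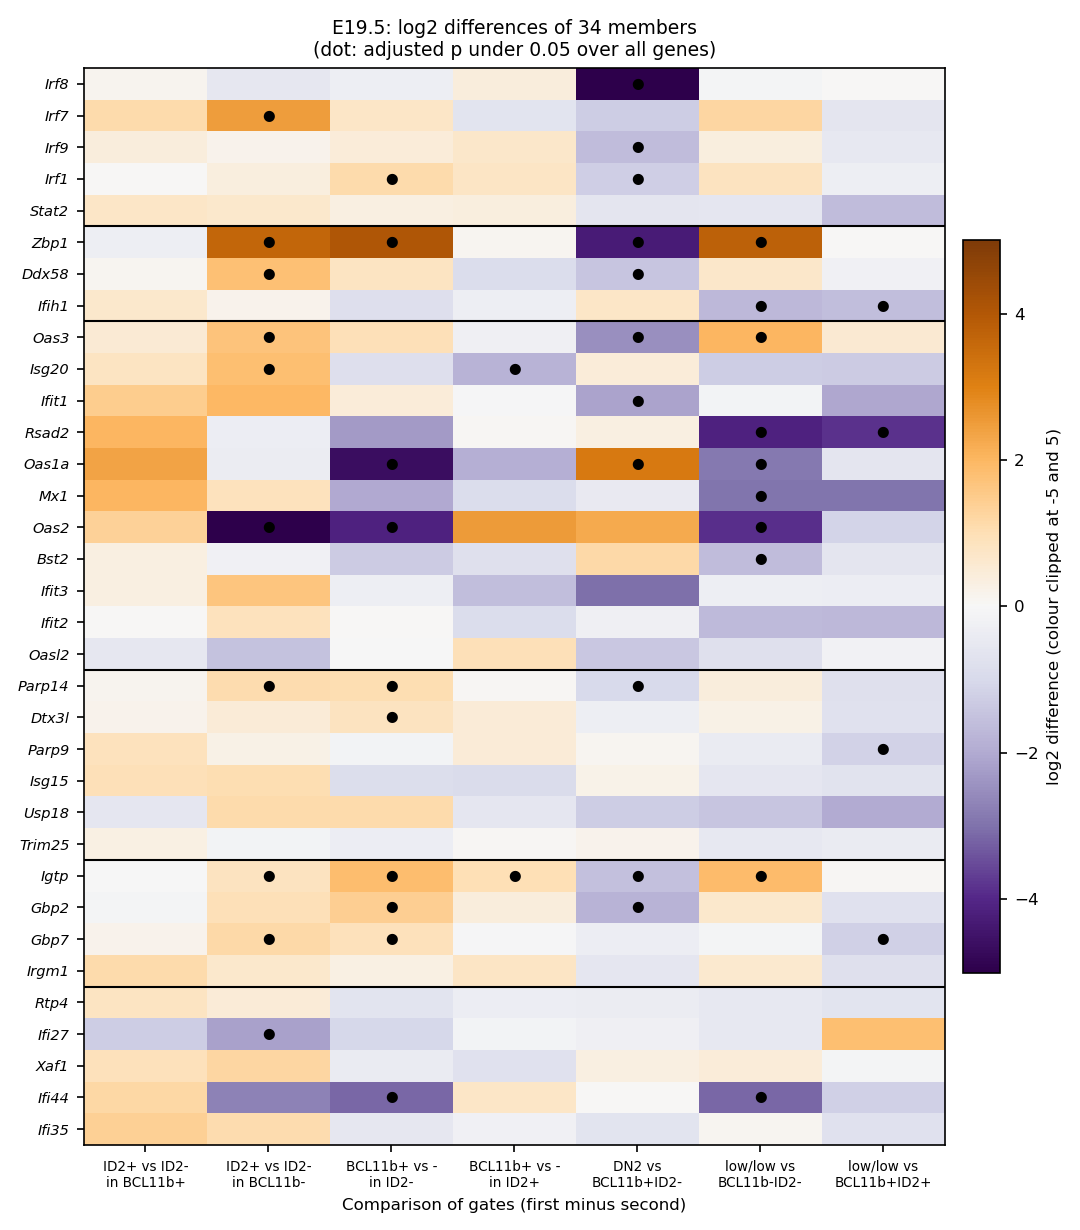
Log2 differences (colour, clipped at -5 and 5) of 34 interferon-stimulated genes (vertical axis, by role) in 7 comparisons of E19.5 gates (horizontal axis, first gate minus second); black dots mark adjusted p under 0.05 over all genes in limma. The column for ID2 among BCL11b+ cells has no dot, and the DN2 column is mostly purple, with Oas1a as the 1 called gene above 0.

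BCL11b was asked about at each ID2 state. Among ID2- cells, BCL11b+ID2- was higher for Irf1, Zbp1, Gbp2, Gbp7, Igtp, Parp14 and Dtx3l and lower for Oas1a, Oas2 and Ifi44. That is 10 of 34, where 14.9% of all genes were called, with a median log2 difference of -0.08 against -0.05 over all genes. Leaving out libraries gave 5 to 10 calls. The count was 6 without library 1 or 2 of BCL11b+ID2- or library 1 of BCL11b-ID2-, and 5 without library 4 of BCL11b-ID2-. Gbp2, Igtp, Oas1a, Parp14 and Zbp1 held throughout. Among ID2+ cells, 2 of 34 passed, Igtp upward and Isg20 downward, where 6.03% of all genes did, with a median of -0.07 against -0.04. Of these, 0 passed without library 1 or 2 of BCL11b-ID2+ or library 4 of BCL11b+ID2+, and 1 without library 1 of BCL11b+ID2+ or library 4 of BCL11b-ID2+. In BCL11b+ID2- against BCL11b-ID2-, the macrophage, monocyte and granulocyte markers were 1 higher and 7 lower of 13 tested (median log2 difference -3.58) and the plasmacytoid markers 2 higher and 4 lower of 7 tested. B-cell markers were 0 higher and 3 lower of 4 tested and conventional dendritic cell markers 0 higher and 3 lower of 5 tested, with that last list at 27.8 to 98.7 in BCL11b+ID2- and 419.6 to 570.0 in BCL11b-ID2-, where Clec9a and Batf3 were at 0 in both. The sums of the other lists are those given beside Oas2. In BCL11b+ID2+ against BCL11b-ID2+, the macrophage, monocyte and granulocyte markers were 6 higher and 1 lower of 13 tested. Where a marker passed the threshold through 1 gate alone, its direction was fixed beforehand, so these counts are a description. The part of these markers in the BCL11b differences was not tested.

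DN2 was set against BCL11b+ID2-, the DN1 gate with the T-lineage reporter alone. Irf1, Irf8, Irf9, Zbp1, Ddx58, Oas3, Ifit1, Parp14, Gbp2 and Igtp were lower in DN2 and Oas1a was higher. These are 11 of 34 genes, where 16.2% of all genes were called. The median log2 difference was -0.50, with 23 of 34 below 0, against -0.01 over all genes. Ddx58, Gbp2, Igtp, Irf8, Irf9, Oas3, Parp14 and Zbp1 held without each library in turn. Both gates were low in the macrophage, monocyte and granulocyte markers (209 to 321 in DN2 and 362 to 547 in BCL11b+ID2-) and in the 8 conventional dendritic cell markers (11.3 to 28.0 and 27.8 to 98.7, with Clec9a, Cd209a and Batf3 at 0 in both). Their part in these differences was not tested.

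BCL11blowID2low was set against the gates at either end of the reporters. Against BCL11b-ID2-, Zbp1, Oas3 and Igtp were higher and Mx1, Rsad2, Ifih1, Ifi44, Oas2, Bst2 and Oas1a were lower, 10 of 34 where 14% of all genes were called. The median was -0.35, against -0.14 over all genes. Ifih1, Igtp, Oas3, Rsad2 and Zbp1 held without each library and under every alternative. The count fell to 6 in edgeR and in DESeq2, which called 11.4 and 14.4% of all genes, and without library 2 of BCL11blowID2low, and to 5 without library 1 or 4 of BCL11b-ID2-. Markers that differed in this comparison were the macrophage, monocyte and granulocyte list with 1 higher and 4 lower of 13 tested, the plasmacytoid list with 1 higher and 5 lower of 7 tested and the epithelial and stromal list with 0 higher and 4 lower of 6 tested. For markers that passed the threshold through 1 gate alone the direction was fixed beforehand, so these marker counts are a description. Against BCL11b+ID2+, Rsad2, Ifih1, Gbp7 and Parp9 were lower and none higher, 4 of 34 where 4.43% of all genes were called. The median was -0.69, with 29 of 34 below 0, against -0.09 over all genes. Leaving out a library gave 1 to 7 calls, with 1 without library 4 and 2 without library 2 of BCL11b+ID2+, 2 without library 2 and 7 without library 4 of BCL11blowID2low, and 0 with only these gates in the fit. The macrophage, monocyte and granulocyte markers summed to 2205 to 2691 in BCL11blowID2low and 2211 to 3109 in BCL11b+ID2+, and the conventional dendritic cell markers to 39.1 to 168 and 205 to 232, with Clec9a and Cd209a at 0 in both. Their part in these differences was not tested.

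Genes around the members were read from 4 further lists. Of 15 interferon receptor and signalling genes, 14 were tested at E19.5 and 8 differed between gates, where 32.9% of all genes did. Ifngr1, the ligand-binding chain of the type II receptor, ran from 242 ± 12.96 in BCL11b-ID2- to 3041 ± 538 in BCL11b+ID2-. Its partner Ifngr2 was lowest in BCL11b-ID2+, at 7.88 ± 9.30, against 163 ± 69.1 in BCL11b+ID2+. Jak1 was highest in BCL11b-ID2+ (2238 ± 200.6) and lowest in BCL11b-ID2- (672 ± 116), and Jak2 highest in BCL11b+ID2+ (552 ± 169). In the comparison of BCL11b-ID2+ with BCL11b-ID2-, 5 genes of the list were higher and 1 lower of 14, where 15.9% of all genes were called. BCL11b+ID2- and BCL11blowID2low each had 5 higher and 0 lower against BCL11b-ID2-, where 14.9% and 14% were called. In DN2 against BCL11b+ID2-, 5 were lower and 0 higher, where 16.2% were called.

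Of 21 interferon genes, Ifng alone reached the threshold at E19.5, and Ifna13 and Ifnk were in the table below it. Ifng did so only through the libraries of BCL11b-ID2+, so its values are given as a description without a test. Ifng stood at 120.3, 199 and 188 in BCL11b-ID2+, at 1.22, 0 and 3.84 in BCL11b-ID2-, at 0, 0 and 2.64 in BCL11b+ID2+, and had no read in the other 3 gates. Every BCL11b-ID2+ library was above all other 15. Of 17 nucleic acid sensing genes, 15 were tested and 6 differed between gates, where 32.9% of all genes did. Samhd1, a dNTP hydrolase, was highest in BCL11b+ID2+ (3364 ± 226) and lowest in DN2 (107 ± 72.1). Tlr7, an endosomal RNA receptor, stood at 117 ± 24.3, 173 ± 72.4 and 118 ± 34.9 in BCL11b-ID2-, BCL11b+ID2+ and BCL11b-ID2+, and at or under 8.95 ± 3.13 in the others. Tlr3 was highest in BCL11b-ID2+ (47.5 ± 31.6), as was Aim2, a DNA sensor (220.5 ± 45.6), and the adaptor Ticam1 was highest in BCL11blowID2low (228 ± 135).

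The last list held 47 other interferon-induced genes, with 41 tested and 24 different between gates, where 32.9% of all genes were. In BCL11b-ID2+ against BCL11b-ID2-, 14 were higher and 0 lower, where 15.9% of all genes were called, with a median log2 difference of 1.16. Among BCL11b+ cells, 7 were higher with ID2 and 0 lower, where 8.73% of all genes were called, with a median of 0.50. BCL11b+ID2- had 8 higher and 6 lower against BCL11b-ID2-, where 14.9% of all genes were called. DN2 had 4 higher and 8 lower against BCL11b+ID2-, where 16.2% were called. The restriction factors Ifitm1, Ifitm2 and Ifitm3 stood at 3852 ± 535, 2136 ± 191 and 1230.5 ± 163 in BCL11b-ID2+. They were at 1.38 ± 1.65, 6.39 ± 1.15 and 12.4 ± 14.2 in BCL11b+ID2-, and at 356 ± 54.8, 673 ± 190.3 and 470.2 ± 93.3 in BCL11b-ID2-. Sp100, a nuclear body protein, was lowest in DN2 (29.9 ± 8.98), as Irf8 and Oas3 were, and highest in BCL11b-ID2+ (950.2 ± 74.0). Gbp4 was lowest in BCL11b-ID2- (35.2 ± 7.84) and highest in BCL11b+ID2- (497 ± 74.7). The Ifitm genes are a family of similar genes, and reads shared among them could be split by the counting.

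At E15.5 the same genes were sparser. Ifit3, Mx1, Mx2 and Oas1a were not analysed at this stage, and 11 of the other 31 missed the threshold. Their highest single libraries held 88.9 (Irf7), 89.0 (Zbp1), 287 (Oas2), 416 (Oas3), 218 (Rsad2), 163 (Isg20), 155 (Bst2), 9.44 (Isg15), 279 (Ifi27), 26.9 (Ifi44) and 115 (Xaf1), mostly beside libraries at 0. Of the 20 that passed, 12 had a library at 0, as did 58.5% of all 10289 genes tested. The median within-gate SD was 2.47 log2 units, and 2.32 over all genes. Per kilobase, Trim25 (297), Igtp (223) and Gbp7 (200.8) were highest. Isg15, of rank 3 per kilobase among the 35 at E19.5, was of rank 29 among the 31 in the E15.5 table, which was normalised apart.

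In limma, 0 of the 20 tested genes were called in each E15.5 comparison. Over all genes, 1.52% were called for any gate, 0.719% for ID2 among BCL11b+, 0.467% for ID2 among BCL11b-, 0.00972% for BCL11b among ID2-, 0.0778% for BCL11b among ID2+, 0% for DN2 against BCL11b+ID2- and 0% for the interaction. At an unadjusted p under 0.05, 3 members were counted for any gate and 5, 3, 3, 3, 3 and 3 in the comparisons, in that order. Of all genes, 14.6% and 12.5, 9.21, 6.84, 10.3, 6.44 and 6.43% were counted so. EdgeR called 1 for any gate and 0 in each comparison, where it called 2.44% and 0.603, 0.311, 0, 0.0875, 0 and 0% of all genes. DESeq2 called 3 for any gate and 6, 2, 0, 2, 0 and 3, where it called 13.9% and 12.6, 4.8, 3.94, 7.45, 6.05 and 4.12% of the genes to which it gave an adjusted p. It gave one to 18 of the 20 members, and to 19 for the interaction. The smallest p over the gates was that of Oasl2, at 401, 185 and 181 in BCL11b-ID2-, at 37.2, 141 and 3.16 in BCL11b+ID2- and at 0, 0 and 0 in BCL11b+ID2+, and at 21.6, 97.3 and 74.4 in BCL11b-ID2+ and at 0 and 8.58 in DN2 (adjusted p = 0.124). BCL11b-ID2- held its 3 highest values, and BCL11b+ID2+ had no read.

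The 8 tested members with the highest E15.5 means are given as values that did not pass. Trim25 (chromosome 11, 88999376 to 89020293, plus strand) stood at 3026, 2594 and 2485 in BCL11b-ID2-, at 2109.8, 1297 and 2986 in BCL11b+ID2- and at 301, 391 and 3946 in BCL11b+ID2+, and at 604, 402 and 1038 in BCL11b-ID2+ and at 2152 and 569.9 in DN2. Its BCL11b-ID2+ libraries were below those of BCL11b-ID2- (log2 difference -2.09, adjusted p = 0.442). Gbp7 (chromosome 3, 142530342 to 142550149, plus strand) stood at 369, 1467 and 638 in BCL11b-ID2-, at 1120.5, 3324 and 606 in BCL11b+ID2- and at 1211, 927 and 473 in BCL11b+ID2+, and at 2293, 505 and 934 in BCL11b-ID2+ and at 1387 and 526 in DN2, with overlapping libraries throughout. Parp14 stood at 291, 261 and 1051 in BCL11b-ID2-, at 111, 795 and 911 in BCL11b+ID2- and at 849.7, 309 and 546 in BCL11b+ID2+, and at 4521, 1543 and 315 in BCL11b-ID2+ and at 252 and 375 in DN2. Its BCL11b-ID2+ libraries ran from the level of DN2 to the highest value of all. Dtx3l (chromosome 16, 35926511 to 35939151, minus strand) stood at 445, 194 and 417 in BCL11b-ID2-, at 2128, 291 and 349.7 in BCL11b+ID2- and at 297, 790.3 and 2182 in BCL11b+ID2+, and at 182, 118 and 517 in BCL11b-ID2+ and at 376 and 6.13 in DN2, and the 2 DN2 libraries lay further apart in ratio than those of any other gate.

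Igtp stood at 112, 590.1 and 248.9 in BCL11b-ID2-, at 943, 141 and 1141 in BCL11b+ID2- and at 633, 509 and 247 in BCL11b+ID2+, and at 805, 306 and 332 in BCL11b-ID2+ and at 288 and 28.2 in DN2, with 1 DN2 library below all others. Ifih1 stood at 541, 148 and 212 in BCL11b-ID2-, at 0.729, 13.05 and 41.1 in BCL11b+ID2- and at 32.0, 355 and 983 in BCL11b+ID2+, and at 888, 250.8 and 102 in BCL11b-ID2+ and at 238 and 80.9 in DN2. BCL11b+ID2- was below BCL11b-ID2- in every library (log2 difference -4.68, adjusted p = 0.598). Ddx58 stood at 13.5, 147 and 219.9 in BCL11b-ID2-, at 1.46, 47.8 and 39.6 in BCL11b+ID2- and at 245, 6.16 and 34.4 in BCL11b+ID2+, and at 799, 888 and 670.3 in BCL11b-ID2+ and at 148 and 1.23 in DN2. As at E19.5, the 3 BCL11b-ID2+ libraries were above all others, but no comparison passed (adjusted p = 0.669 against BCL11b-ID2-). Stat2 (chromosome 10, 128270559 to 128292849, plus strand) stood at 1.42, 1.32 and 15.51 in BCL11b-ID2-, at 195, 7.61 and 99.7 in BCL11b+ID2- and at 34.99, 153 and 0 in BCL11b+ID2+, and at 355, 2000.8 and 25.9 in BCL11b-ID2+ and at 13.7 and 1.23 in DN2, with BCL11b-ID2+ above BCL11b-ID2- in every library (log2 difference 5.88, adjusted p = 0.349).

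**Figure D4:**
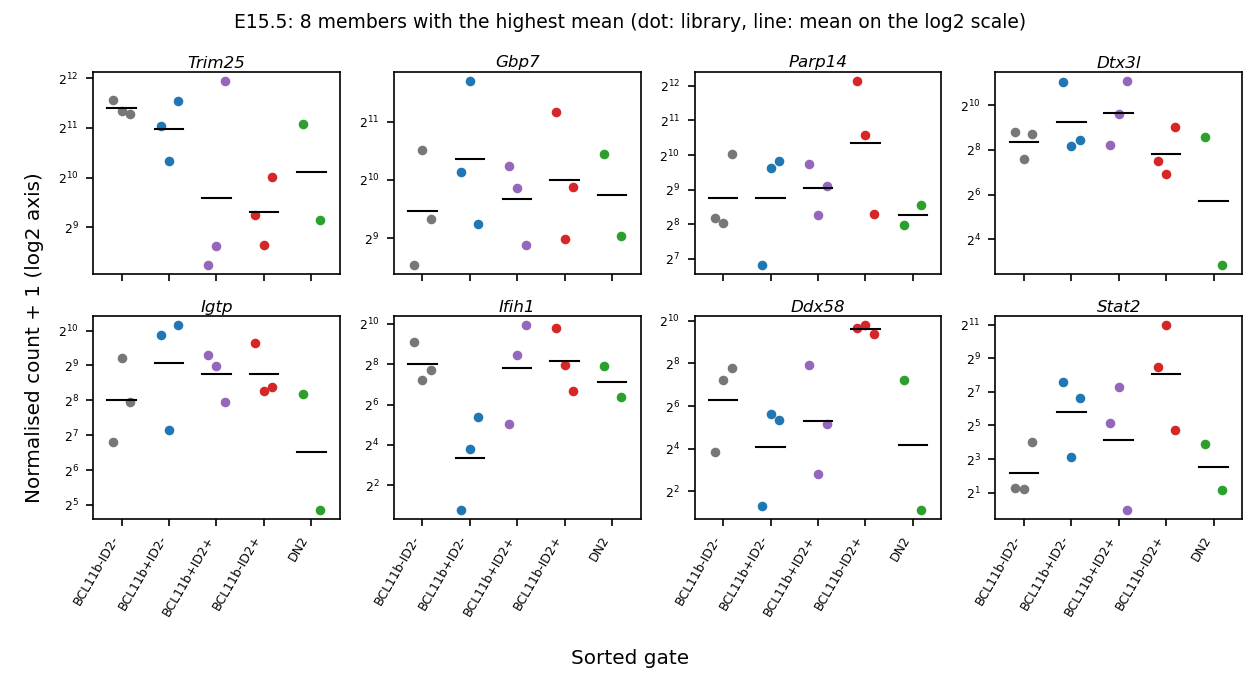
Normalised count + 1 (vertical axes, log2) in each E15.5 library by sorted gate (horizontal axes) for the 8 tested genes with the highest means; dots are libraries and lines are means on the log2 scale. Libraries of a gate lie up to several powers of 2 apart, and Ddx58 in BCL11b-ID2+ is a tight group above the rest.

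The remaining 12 tested members at E15.5 had means from 6.43 (Irgm1) to 186 (Gbp2), often carried by few libraries. Ifi35 held 2521 in library 2 of BCL11b-ID2+, and 21.4 or less in the other 13. Gbp2 was at 1091, 1.68 and 877 in BCL11b+ID2+ and 471, 103 and 46.7 in BCL11b-ID2+, against at most 8.74 elsewhere, and did not pass (adjusted p = 0.168 for any gate). Irf8 had no read in either DN2 library, the gate in which it was lowest at E19.5, but also stood at 0 in 4 DN1 libraries. Median log2 differences over the 20 members were 0.06 for ID2 among BCL11b+ and 0.49 among BCL11b- cells, against -0.22 and -0.14 over all genes. For BCL11b among ID2- and ID2+ cells they were -0.77 and -1.52, against -0.32 and -0.44. For DN2 the median was -0.74, against 0.00. Ifng at E15.5 stood at 618, 17.6 and 368 in BCL11b-ID2+ and at or below 1.46 in every other library. It again reached the threshold only through that gate. Of the receptor and signalling, sensing and other induced genes of the lists, 0 of 12, 0 of 13 and 0 of 28 were called for any gate. Over all genes, 1.52% were called so.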

How the data were processed

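Per the labels, RNA of sorted cells was extracted with the RNeasy Plus micro kit, amplified with the Ovation RNA-seq System V2, sheared on a Covaris M220 and made into libraries with the Ovation Ultralow kit. The deposited values are DESeq-normalised read counts per Ensembl gene, a linear signal on a common scale within each stage's table, made by the authors. The submitters' processing notes name Trim Galore 0.50, STAR 2.6.0a, DESeq2 1.18.1 and GRCm38. The counter, its annotation and its strand setting are not given in any source used here. Each column was a whole-number count times 1 factor (100.0% of values whole within 0.01 reads), so reads were recovered for depth and for count tests.

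Members and gene lists were chosen with earlier results of these data known. Each stage's 14 or 18 libraries were fitted apart with limma 3.58.1 (R 4.3.3, trend and robust) on log2(value + 1), over genes at 10 or more in at least 3 libraries, with Benjamini-Hochberg adjustment over all of them at 0.05. Differences on this scale understate changes of genes with few reads. A fold is a ratio of mean normalised counts, at least that against a floor of 3 reads over the gate where it held none, and with an exact interval at 1 to 3 reads. Floors and intervals cover counting error only, since reads carry no molecular identifiers. The 14 E19.5 members with the smallest p over gates are given by library, others by range, and at E15.5, where none passed, the 8 with the highest means. List genes named are at most 5 per list, by p over gates. Values of some list genes are not reported here. Exon lengths and positions are from GENCODE M21 and promoters from RefSeq. Alternatives were a pseudocount of 8, no filter, TMM scaling, edgeR 4.0.16 and DESeq2 1.42.0 on reads, a replicate block, only the compared gates, and leaving out each library. The limma fit alone was tested on simulated data, at both stages and for ID2 among BCL11b- cells only. The F test, the interaction, edgeR and DESeq2 were not tested in that way.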

Additional observations from a re-analysis of the deposited data

Results flagged for a closer look

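The interaction test of limma, which asks whether the ID2 difference depends on the BCL11b state, passed at E19.5 for 3 of 34 genes (8.82%). That share was near the 9.28% of all genes that passed. Zbp1 differed by -0.28 among BCL11b+ and 3.67 among BCL11b- cells on the log2 scale, so that the first minus the second was -3.95. The Zbp1 call held without each library in turn. For Ddx58 the differences were 0.12 and 1.76, and their difference -1.65. That call was lost in 9 of 12 fits that left out 1 library, and without the filter. For Oas2 the differences were 1.33 and -5.31, and their difference 6.64, a call lost in 4 of 12 such fits.

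For some genes every library of one gate was on opposite sides of the other gate's at the 2 stages. This held for 1 of 20 members for ID2 among BCL11b+ cells, 1 for BCL11b among ID2- cells and 2 for DN2, against 1.097%, 1.57% and 2.37% of the genes tested at both stages. These contrasts between stages were not tested, because the tables were normalised apart. Ifit1 was -4.24 at E15.5 and 1.45 at E19.5 for ID2 among BCL11b+ cells, in log2 units. Its E15.5 libraries held 0, 0 and 0 in BCL11b+ID2+ and 43.7, 57.6 and 1.58 in BCL11b+ID2-. Irf1 was 5.60 and -1.24 for DN2 against BCL11b+ID2-, with 16.4 and 134 in the E15.5 DN2 libraries and no read in the 3 of BCL11b+ID2-. Irf9 was 5.73 and -1.62 in that comparison, and -4.80 and 0.46 for BCL11b among ID2- cells. Its E15.5 libraries held 101 and 49.0 in DN2, 1.46, 0 and 0 in BCL11b+ID2- and 55.4, 60.7 and 14.2 in BCL11b-ID2-. None of the E15.5 differences passed (adjusted p = 0.394 for Ifit1, 0.713 for Irf1, and 0.723 and 0.713 for Irf9).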

How the results depend on the processing

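Of 50 calls of single members over the E19.5 comparisons, 25 held under every alternative and without each library, and 0 changed direction. Calls were lost for 14 with only the compared gates in the fit, 9 in edgeR, 8 without the filter and 6 in DESeq2. A pseudocount of 8 lost 4, TMM scaling 1 and the replicate block 0. The replicate block did lose the call of Ifit3 over the gates. Leaving out 1 library lost the call in 93 of 318 pairs of a call and a library of its comparison. Counts of members called moved as follows, and the cause was not tested. At E15.5, DESeq2 called 6 for ID2 among BCL11b+, 2 for ID2 among BCL11b-, 2 for BCL11b among ID2+, 3 for the interaction and 3 for any gate, and edgeR 1 for any gate. There the count was 0 to 1 without 1 library, with 1 without library 2 of BCL11b+ID2+. At E19.5, ID2 among BCL11b+ had 1 call with a pseudocount of 8, in DESeq2, with the replicate block and with only the compared gates. BCL11b among ID2+ had 1 without the filter. BCL11blowID2low against BCL11b-ID2- had 6 in edgeR, in DESeq2 and with only the compared gates, and against BCL11b+ID2+ 0 with only the compared gates. Without 1 library, the counts ran from 5 to 10 for BCL11b among ID2-, 0 to 2 for BCL11b among ID2+, 1 to 3 for the interaction, 5 to 11 for BCL11blowID2low against BCL11b-ID2- and 1 to 7 against BCL11b+ID2+.

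The labels do not say that library numbers pair samples, and same-numbered libraries of different gates had a median correlation of deviations of 0.0145 at E15.5 and 0.0538 at E19.5. Of the libraries, 10 of 14 and 17 of 18 correlated best with their own number, a hint from the data and not the design. The replicate block moved no other count by over 1.5 times. At E15.5 members had a median within-gate SD of 2.47 log2 units (range 1.02 to 3.20), in 2 or 3 libraries a gate.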
